A study of Mus musculus with 96 samples.

Results

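The subject is the first 2 h of the response of mouse bone marrow dendritic cells to the ligand labelled Pam, set against unstimulated cells of the same kind. Its members were chosen by title and time alone: the 6 arrays titled Pam at 0.5, 1 and 2 h, with 2 arrays per time, and all 8 arrays of unstimulated cells, with 1 array each at 0, 1, 2, 4, 6, 8, 12 and 24 h. These 14 arrays are part of a series of 96, in which primary bone marrow dendritic cells, grown in culture from marrow precursors, were exposed to 1 of 5 ligands for up to 24 h. Each array carries labelled total RNA of a whole culture. The labels give no mouse strain, sex, age or ligand dose, and nothing in them tells whether replicate arrays stem from separate cultures. The p-values therefore cover the spread among arrays alone, which may be technical. From knowledge of such studies and not from the labels, Pam is taken here as a synthetic bacterial lipopeptide and an agonist of Toll-like receptor 2 (TLR2), and Lps and Cpg, used below for comparison with 6 arrays each at the same times, as lipopolysaccharide (TLR4) and CpG oligonucleotides (TLR9).

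TLR2 recognises bacterial lipopeptides at the cell surface as a heterodimer with TLR1 or TLR6, helped by the accessory protein CD14. It signals through the adaptors TIRAP and MyD88 to the IRAK kinases and TRAF6, which activate NF-kB and the MAP kinases. In dendritic cells this pathway is known for fast transcription of immediate-early factors, cytokines and chemokines, followed by genes of maturation and by inhibitors that restrain the signal.

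Values are intensities on a linear scale with a floor of 20, at which a transcript has only an upper bound. Differences are given on the scale of log2(value + 1), as Pam minus unstimulated, with the standard error (SE) of 1 limma model over all 96 arrays. Here "called", "rose" and "fell" require a difference of at least 1, a doubling, together with a p below 0.05 after Benjamini-Hochberg adjustment over all 10543 items tested, of which 7741 are named genes and 2802 probe sets without a gene name. Both kinds are counted as genes below. In the 14 arrays the median intensity ranged from 50.3 to 59.5, and the share of probe sets at the floor from 33.1% to 34%. Of the defining dendritic cell markers, 13 were measured, with a summed intensity of 28670 to 34120 in Pam arrays and 30070 to 32580 in unstimulated arrays, and Cd209a lay at the floor in all 14. Macrophage markers summed to 13870 to 16740 in Pam arrays and 14190 to 21990 in unstimulated arrays, and neutrophil markers to 7230 to 8966 in Pam arrays and 5192 to 8210 in unstimulated arrays; what part such differences have in the results was not tested. Of the B cell markers, 4 of 5 lay at the floor in all 14 arrays, as did 3 of 6 for T and natural killer cells and 5 of 6 for mast cells. Erythroid and platelet markers summed to 3112 to 3544 in Pam arrays and 2791 to 4015 in unstimulated arrays. In whole cultures, fewer cells of a type and less RNA per cell cannot be told apart.

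Some features of the arrays bear on all that follows. The 2 Pam arrays of 2 h correlated with r = 0.9852 across genes, which are not independent replicates, and 182 genes lay at least 2-fold apart between them, whereas the other 42 pairs of the series had r from 0.9919 to 0.9982 and a median of 1 such gene, with the most, 93, in the Cpg pair of 1 h. The unstimulated arrays were not alike either. Ccl2, for example, had intensities of 944, 492.3, 926.8, 276.2, 40.7, 148.7, 63.2 and 44.4 at 0, 1, 2, 4, 6, 8, 12 and 24 h without ligand. Many results against all 8 unstimulated arrays are therefore also given against those of 0, 1 and 2 h alone. Where no such value is given, the result is against all 8. On the plate, Pam arrays of 0.5, 1 and 2 h lay in columns 1, 2 and 3 and unstimulated arrays in columns 10 to 12, so an effect of plate column and one of time or of Pam itself cannot be told apart.

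Over the window of 0.5 to 2 h, 174 of 10543 genes were called higher after Pam than in unstimulated cells (1.65%) and 78 lower (0.74%). All 6 Pam arrays lay above the range of the 8 unstimulated arrays for 82 of the 174, and below it for 49 of the 78. Both counts are among called genes only, a choice that itself favours such separation. The share over all genes was not computed. By time, 80 genes were called higher (0.759%) and 77 lower (0.73%) at 0.5 h, 212 (2.01%) and 102 (0.967%) at 1 h, and 354 (3.36%) and 388 (3.68%) at 2 h. Against the unstimulated arrays of 0 to 2 h alone, the window held 127 higher (1.2%) and 19 lower (0.18%), and 2 h held 297 (2.82%) and 286 (2.71%). After centring the arrays on their medians, the split at 2 h was 447 higher and 236 lower in place of 354 and 388. Of the 174 genes called higher, 4 had their highest mean at 0.5 h, 62 at 1 h and 108 at 2 h within the window.

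The immediate-early transcription factors, genes switched on without new protein synthesis, had more members called at 0.5 h than any other of the 13 lists. Of 27 measured, 11 rose over the window and 1, Klf4, fell, with a median difference of 0.70, against -0.04 over all genes. Against the unstimulated arrays of 0 to 2 h, 9 rose and 1 fell. The window fall of Klf4 (-1.05 ± 0.12) was no longer called with centred arrays (-0.97) or without the second 2 h array (-0.92). At 0.5 h 11 rose and 0 fell, at 1 h 14 rose and 1, Klf10, fell, and at 2 h 8 rose and 3 fell. With the unstimulated arrays of 0 to 2 h, 10, 13 and 8 rose and 0, 1 and 4 fell at these times.

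Egr1, an early growth response factor induced through the MAP kinases, had intensities of 1921 and 794.6 at 0.5 h, 2338 and 2363.4 at 1 h, and 130.5 and 50.9 at 2 h after Pam, and from 20 to 41.2 in the 8 unstimulated arrays (median 21.75). All 6 Pam arrays lay above the unstimulated range. The difference was 5.58 ± 0.22 at 0.5 h, 6.51 ± 0.22 at 1 h and 1.68 ± 0.22 at 2 h (adjusted p = 1.6e-27, 4.7e-31 and 3.6e-09). Fos, a subunit of the AP-1 factor, had 1211.3 and 765.6 at 0.5 h, 974.4 and 965 at 1 h, and 42.1 and 23.3 at 2 h, and 147.3 to 333.3 in unstimulated cells (median 191.4). It thus lay above every unstimulated array at 0.5 and 1 h and below every one at 2 h, with differences of 2.22 ± 0.20, 2.23 ± 0.20 and -2.67 ± 0.20 (adjusted p = 4e-13, 7.9e-14 and 6e-17). Averaged over the window Fos differed by 0.60 ± 0.13 and was not called.

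Jun, the partner of Fos in AP-1, was called higher at 0.5 h (1.70 ± 0.15) and 1 h (2.14 ± 0.15), while at 2 h its intensities were 86.6 and 65.5, against 78.9 to 140.9 in unstimulated cells, a difference of -0.57 ± 0.15 that was not called. Ier2 and Ier3, immediate-early response genes, rose by 3.08 ± 0.16 and 2.67 ± 0.12 at 1 h. At 2 h the rise of Ier2 was 1.01 ± 0.16, and its call was lost without the second 2 h array and against the unstimulated arrays of 0 to 2 h. Nr4a1, an orphan nuclear receptor, rose by 1.13 ± 0.15, 2.83 ± 0.15 and 1.40 ± 0.15 at the 3 times. Maff, a small Maf protein, and Junb, another AP-1 subunit, were still called higher at 2 h, by 3.26 ± 0.20 and 1.49 ± 0.11. Within this group the levels at 2 h therefore ranged from far above the unstimulated cells, as for Maff, to far below, as for Fos and Klf4.

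Over the window, with each gene represented by its brightest probe set, the 2 largest differences among named genes were those of Cxcl1, a chemokine gene, and Tnf, a cytokine gene. Of 27 cytokine genes measured 12 rose over the window and 0 fell (median 0.95), and of 20 chemokine genes 8 rose and 0 fell (median 0.47). At 0.5 h 6 of each list were already called higher. Against the unstimulated arrays of 0 to 2 h, 10 cytokine and 6 chemokine genes rose over the window, and 6 and 5 at 0.5 h. Tnf, the gene of tumour necrosis factor, had 2461.2 and 1347.2 at 0.5 h, 4600.4 and 5294.7 at 1 h, and 2986 and 2657.3 at 2 h after Pam, against 33.2 to 157.6 in unstimulated cells (median 61.75). The lowest Pam array lay far above the highest unstimulated one, and the window difference was 5.49 ± 0.17 (adjusted p = 7.5e-33). Il6, which encodes interleukin-6, had 425.1 and 89.8 at 0.5 h, 2324.5 and 2101 at 1 h, and 2630.2 and 1941.7 at 2 h, against 20 to 62.4 (median 22.7). The 2 arrays of 0.5 h thus differed widely for Il6, although both lay above the unstimulated range, and the window difference was 5.16 ± 0.18 (adjusted p = 2.5e-30).

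Cxcl1 and Cxcl2 encode neutrophil-attracting chemokines. Cxcl1 was at the floor without ligand on every array and had 718 and 298 at 0.5 h, 2819.9 and 2646.7 at 1 h, and 1610.3 and 804.4 at 2 h after Pam, so that its rise was at least 53.8-fold over the window and at least 130-fold at 1 h (adjusted p = 1.1e-44 and 1e-40). Cxcl2 had 4330.1 and 3030.3, 6950.1 and 6071.7, and 5603.1 and 3876.9 at the 3 times, against 54.4 to 561.7 in unstimulated cells (median 104.4), a window difference of 5.15 ± 0.26. Both peaked at 1 h within the window. Ccl3 and Ccl4, which attract monocytes and lymphocytes, rose by 3.79 ± 0.25 and 3.71 ± 0.21. Ccl2, a monocyte attractant, was called higher by 2.84 ± 0.38 against all 8 unstimulated arrays, but its difference of 0.89 against those of 0 to 2 h was not called, since the unstimulated level was itself high at those times.

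**Figure D1:**
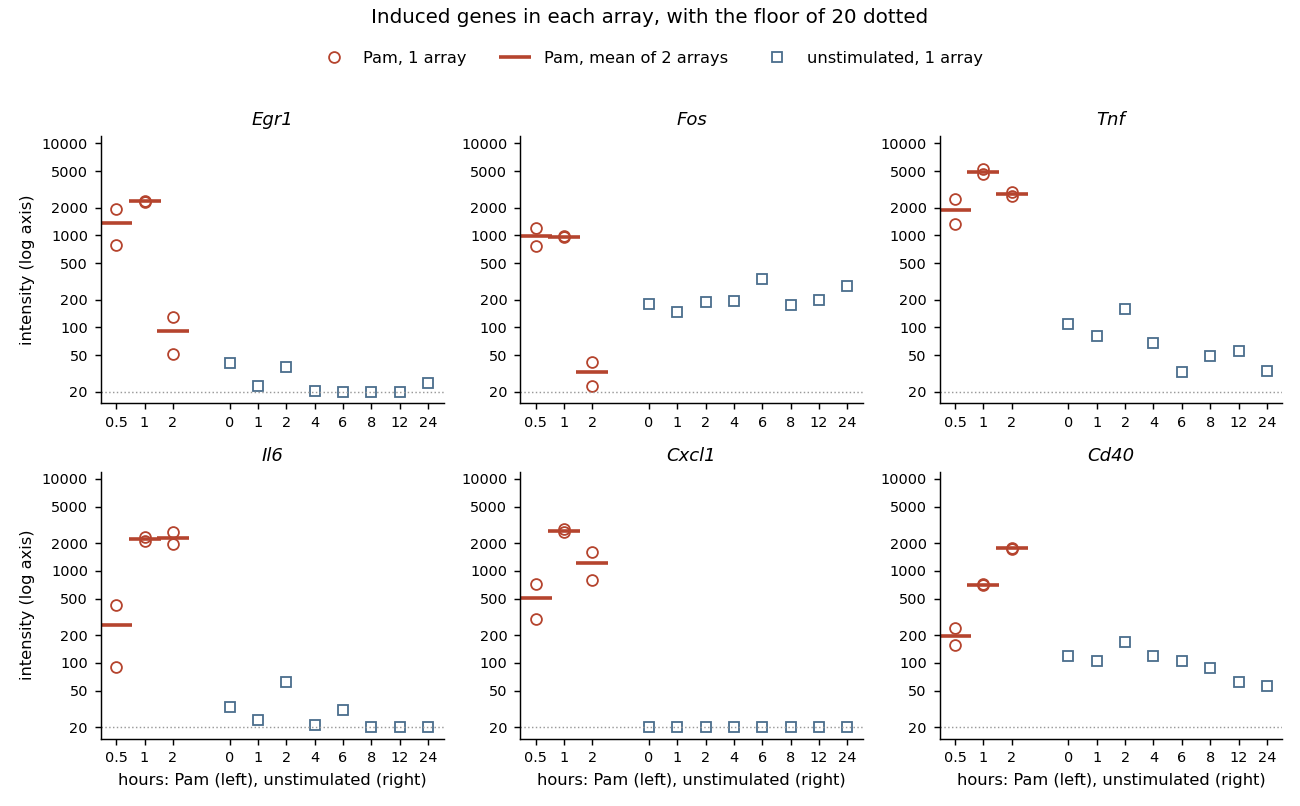
Intensity on a log axis (vertical) of 6 induced genes in each Pam array at 0.5, 1 and 2 h (circles, with bars at the mean of 2 arrays) and in each unstimulated array at 0 to 24 h (squares), with the floor of 20 dotted. Egr1 and Fos were lower at 2 h than at 0.5 and 1 h after Pam, Tnf and Cxcl1 were highest at 1 h, and Cd40 was highest at 2 h.

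Interleukin-1 genes were already expressed without ligand. Il1b had 2764.7 to 8678 in the 6 Pam arrays, against 388.4 to 1256.2 in unstimulated cells, and rose by 3.20 ± 0.13, and Il1a rose by 3.57 ± 0.22. Tnfsf9, which encodes the costimulatory ligand 4-1BBL, had 519.2 and 98.9 at 0.5 h, 2849.1 and 2929.8 at 1 h, and 1403.2 and 968.3 at 2 h, against 23.7 to 36.7, and rose by 4.92 ± 0.15. Inhba, an activin subunit, rose by 3.87 ± 0.31.

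The interleukin-12 family came later. Il12b, the shared subunit of interleukins 12 and 23, had 80.1 and 20 at 0.5 h, 773.9 and 690.8 at 1 h, and 1374.7 and 1177.4 at 2 h, against 21.9 to 154 in unstimulated cells (median 57.05). It lay within or below the unstimulated range at 0.5 h and above it afterwards, with a difference of 4.61 ± 0.34 at 2 h (adjusted p = 4.7e-17). Il12a, the other subunit of interleukin-12, was at the floor at 0.5 h and in all unstimulated arrays, had 50.5 and 40.4 at 1 h and 178.3 and 219.6 at 2 h, and was thus at least 9.47-fold higher at 2 h. Il23a, the other subunit of interleukin-23, had 84.7 and 71.5 at 1 h and 110.1 and 44 at 2 h, with all other arrays at the floor. Il10 and Ifnb1, which encode the inhibitory cytokine interleukin-10 and interferon beta, were at the floor in all 14 arrays.

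Of the 12 genes with the largest window rises, 8 had an upstream window in the RefSeq promoter table (build GRCm38.p6), and the kB motif, the DNA element bound by NF-kB, was found on either strand within 250 bases before the start in 3 of these: Cxcl1, Cxcl2 and Il6. It was found in 0 of the 9 largest falls with a window, and in 4.58% of the 8204 windows of tested genes. Rises and falls are counted by gene and such shares by window, and a gene can have several windows. The motif is 10 bases long, and at Cxcl1 and Cxcl2 it matched at 2 overlapping places. Of the 8 windows, only the 3 with a match are shown, so they were chosen by the motif. All 3 lie on chromosome 5, plus strand, at chr5:90890995-90891244 (Cxcl1), chr5:90903649-90903898 (Cxcl2) and chr5:30012864-30013113 (Il6), and are written 5′ to 3′ up to the base before the start, with the kB match in capitals:
Cxcl1: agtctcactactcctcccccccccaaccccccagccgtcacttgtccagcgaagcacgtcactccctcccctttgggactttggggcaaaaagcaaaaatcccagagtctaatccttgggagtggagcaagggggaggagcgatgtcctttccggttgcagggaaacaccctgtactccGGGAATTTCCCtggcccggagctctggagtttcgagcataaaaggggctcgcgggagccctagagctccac
Cxcl2: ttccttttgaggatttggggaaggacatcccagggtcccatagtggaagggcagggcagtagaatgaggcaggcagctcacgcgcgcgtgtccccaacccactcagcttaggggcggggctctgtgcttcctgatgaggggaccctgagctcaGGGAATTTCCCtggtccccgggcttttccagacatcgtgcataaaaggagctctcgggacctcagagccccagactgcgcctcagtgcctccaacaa
Il6: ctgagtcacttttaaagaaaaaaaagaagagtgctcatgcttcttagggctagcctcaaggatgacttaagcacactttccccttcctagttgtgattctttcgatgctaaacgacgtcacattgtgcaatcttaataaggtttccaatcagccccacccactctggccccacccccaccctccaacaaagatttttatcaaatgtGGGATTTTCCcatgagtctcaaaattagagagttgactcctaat
The match began at position -71 in Cxcl1, -97 in Cxcl2 and -44 in Il6, counted from the start. Cxcl1 and Cxcl2 carried the same letters, GGGAATTTCCC, and Il6 GGGATTTTCC. The AP-1 motif TGANTCA, searched on both strands, was found in 1 of the 8 rises, Il6, and in 5.01% of the windows of tested genes. The CArG box and the cyclic AMP response element were found in 0 of the 8, with 1.21% and 2.36% of the windows of tested genes holding them. A match is a description of the letters only.

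A further list joined NF-kB and I-kB family members with survival genes. Of its 22 measured members, 8 rose over the window and 0 fell (median 0.66), and 13 rose at 2 h. Against the unstimulated arrays of 0 to 2 h, 7 rose over the window and 14 at 2 h. Nfkbiz, an inducible nuclear I-kB protein, had 2391.8 and 758.4 at 0.5 h, 4966.9 and 4761.5 at 1 h, and 4130.4 and 3205.1 at 2 h, against 47.9 to 99 in unstimulated cells (median 76.45). Every Pam array was above every unstimulated one, and the window difference was 5.31 ± 0.14 (adjusted p = 3.6e-36). A second, dimmer probe set of Nfkbiz differed by 5.96 over the window. Nfkbia, which encodes the I-kB alpha that holds NF-kB in the cytoplasm, rose by 2.05 ± 0.10 from an already high unstimulated mean of 1484 ± 440.3 (SD, n = 8). Rel, an NF-kB subunit, was not called at 0.5 h (0.77 ± 0.08) and rose by 1.94 ± 0.08 at 1 h and 2.13 ± 0.08 at 2 h. Relb, another subunit, differed by 0.25 ± 0.06 and was not called.

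Negative feedback regulators were among the early risers. Of 28 measured, 13 rose over the window and 1, Tsc22d3, fell (median 0.82), a count that was 8 and 1 against the unstimulated arrays of 0 to 2 h. At 2 h 13 rose and 5 fell, and against the unstimulated arrays of 0 to 2 h 10 rose and 3 fell. Socs3, an inhibitor of cytokine receptor signalling, had 772.1 and 485.8 at 0.5 h, 1675.2 and 1466.2 at 1 h, and 748.5 and 1096.2 at 2 h, against 28.2 to 145.9 (median 49.75), and rose by 4.10 ± 0.20. Tnfaip3, the ubiquitin-editing enzyme A20, had 212.8 and 104 at 0.5 h, within or just above the unstimulated range of 51.2 to 129.1, and then 1424.3 and 1691 at 1 h and 818.6 and 661.6 at 2 h. It was not called at 0.5 h (0.76 ± 0.20) and rose by 4.14 ± 0.20 at 1 h.

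The phosphatases that act on MAP kinases had different courses. Dusp1 had 3053.4 and 2139.9 at 0.5 h, 4556.8 and 4830.4 at 1 h, and 837.9 and 820.3 at 2 h, against 255 to 702.5, and was called at 0.5 h (2.60 ± 0.15) and 1 h (3.48 ± 0.15) and not at 2 h (0.98 ± 0.15). Dusp2 had 137.1 and 20 at 0.5 h, 341.6 and 351.2 at 1 h, and 130.5 and 80.7 at 2 h, with all unstimulated arrays at the floor. Its call at 0.5 h rested on 1 of the 2 arrays. Dusp14 was at the floor at 0.5 h and reached 177.1 and 125.8 at 1 h and 478.4 and 241 at 2 h. Cish, an inhibitor of cytokine signalling, was called higher at 2 h against all 8 unstimulated arrays (1.55 ± 0.50), with 868 and 1092.8 after Pam and 72.7 to 1126.3 without ligand, but the difference was -0.08 against those of 0 to 2 h.

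Of 27 inducible enzymes and mediators, 7 rose over the window and 0 fell (median 0.44), and 4 rose against the unstimulated arrays of 0 to 2 h. Ptgs2, the inducible cyclooxygenase that starts prostaglandin synthesis, had 272.3 and 78.8 at 0.5 h, 1897.1 and 2001 at 1 h, and 2144.5 and 1337.6 at 2 h, while all unstimulated arrays were at the floor, a rise of at least 37.5-fold over the window (adjusted p = 6.9e-38). A second, dimmer probe set of Ptgs2 differed by 0.05 at 0.5 h, 5.23 at 1 h and 5.24 at 2 h. Serpinb2, a protease inhibitor, had 153.5 and 99.1, 1013.2 and 889.8, and 1731.3 and 1515.6 at the 3 times, against 21.7 to 127.3. Ch25h, which makes 25-hydroxycholesterol, rose by 2.66 ± 0.12, and Acod1, the enzyme of itaconate synthesis, by 1.22 ± 0.10. The call of Acod1 over the window was lost against the unstimulated arrays of 0 to 2 h (0.86).

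Of 24 genes of dendritic cell maturation, 1 was called higher at 0.5 h, 6 at 1 h and 9 at 2 h, and 0 lower at any of these times. The 1 at 0.5 h, Cd80, was not called against the unstimulated arrays of 0 to 2 h, and at 2 h 8 were called higher against these. Cd40, the receptor through which T cells license dendritic cells, had 238.2 and 156.4 at 0.5 h, 721.5 and 696.1 at 1 h, and 1763 and 1741.4 at 2 h, against 56.7 to 170.2 in unstimulated cells (median 105.2). The 2 h arrays agreed closely for Cd40, and its difference there was 4.15 ± 0.17 (adjusted p = 7.9e-27). Cd70, a costimulatory ligand, was at or next to the floor at 0.5 h, had 65.3 and 56.2 at 1 h and 338 and 285.5 at 2 h, and was at least 14.8-fold higher at 2 h. Cd80 and Tnfsf4 (OX40L), further costimulatory ligands, rose at 2 h by 2.57 ± 0.22 and 2.24 ± 0.11. Cd83, a maturation marker, had an unstimulated mean of 1271 and differed by 0.53 ± 0.09 at 2 h, which was not called.

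Of 25 recognition and signalling genes of the TLR2 pathway measured, 1 rose over the window and 0 fell (median 0.09), and at 2 h 4 rose and 1 fell (median 0.13). The gene that rose over the window was Map3k8, the kinase that couples TLR signals to ERK, with 133.5 to 326.8 in Pam arrays and 83.7 to 103.5 in unstimulated arrays, a rise of 1.23 ± 0.06 (adjusted p = 4.4e-25). Tlr2 had 2199.6 and 2235.4 at 0.5 h, 3140.9 and 2934.1 at 1 h, and 3736 and 4151.9 at 2 h, against 1440.7 to 2341.4 (median 1993). Its 1 and 2 h arrays all lay above the unstimulated range, and it was called only at 2 h (1.01 ± 0.08), a call lost without the second 2 h array and against the unstimulated arrays of 0 to 2 h. Cd14 rose by 1.05 ± 0.16 at 1 h and 1.23 ± 0.16 at 2 h, although its unstimulated level itself ranged from 1475.2 at 1 h to 3757.9 at 24 h. Tlr1 and Tlr6, the partners of TLR2, differed by 0.09 ± 0.14 and 0.41 ± 0.07 over the window, Myd88 by 0.20 ± 0.06 and Tirap by -0.70 ± 0.06, and none of these was called. Mapk14, the p38 alpha kinase, was the 1 member called lower at 2 h (-1.05 ± 0.10), and that call was lost without the second 2 h array and against the unstimulated arrays of 0 to 2 h. It was represented by its brightest probe set (-0.52 ± 0.07 over the window), while its other 2 probe sets, which were dimmer, were both called lower over the window (-1.10 and -1.15).

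Among 22 G-protein coupled receptors, 2 rose and 2 fell over the window, and 2 rose and 7 fell at 2 h. Hcar2, the niacin receptor, rose by 2.58 ± 0.19, with 202.4 to 811.9 in Pam arrays and 35.1 to 175.5 in unstimulated arrays, and Gpr84, a receptor for medium-chain fatty acids, rose by 1.53 ± 0.16, a call lost against the unstimulated arrays of 0 to 2 h (0.96). The receptors for prostaglandin E2 went opposite ways at 1 h. Ptger4 was called higher (1.42 ± 0.10), with 2338.4 and 2255.3 against 703.8 to 1066, and Ptger2 lower (-1.37 ± 0.20), with 62.6 and 45.5 against 88.9 to 279.3. The call of Ptger2 at 1 h was lost against the unstimulated arrays of 0 to 2 h.

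Interferon-stimulated genes did not rise as a group. Of 35 measured, 1 rose over the window and 3 fell (median -0.17), and at 2 h 1 rose and 6 fell (median -0.29). The gene that rose was Cxcl10, a chemokine that NF-kB also induces, with 151.6 and 81.6, 369.3 and 388.4, and 345.7 and 286.9 at the 3 times, against 20 to 64.6, a difference of 2.50 ± 0.16. Those that fell over the window were Stat2, an interferon signal transducer, and the GTPases Irgm2 and Iigp1, with differences of -1.26 ± 0.12, -1.24 ± 0.11 and -1.13 ± 0.19. Against the unstimulated arrays of 0 to 2 h, only Stat2 of these 3 was still called. The unstimulated 6 h array stood highest for these genes, for example at 300.2 for Iigp1.

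Fewer genes fell than rose over the window, and the falls were smaller. Cnr2, the cannabinoid receptor of immune cells, had 57.1 and 66.5 at 0.5 h, 29.6 and 37.8 at 1 h, and 20 and 21.3 at 2 h after Pam, against 59.4 to 146.8 in unstimulated cells (median 133.7). It was at or next to the floor at 2 h, with differences of -1.72 ± 0.19 at 1 h and -2.39 ± 0.19 at 2 h (adjusted p = 9.6e-11 and 6.8e-16). Tsc22d3, the glucocorticoid-induced leucine zipper, had 32.3 to 50 in the 6 Pam arrays, against 72.3 to 233.9, with no overlap, and differed by -1.63 ± 0.14. Of the 10 largest falls of the window, 5 were still called against the unstimulated arrays of 0 to 2 h: Cnr2, Tsc22d3, Zfp53, Pdik1l and Sox4. Sox4 and Pdik1l were represented by their brightest probe set, and their other 4 and 2 probe sets, which were dimmer, were not called over the window (-0.57 to 0.00 and -0.58 to -0.17). The others, Tmem140, Ptger2, Nfe2, Apobec1 and Tlr8, were not, with differences between -0.97 and -0.63. Apobec1, for example, had 219.4 to 663.3 in Pam arrays, while its unstimulated level was 714.8, 745.5 and 693.6 at 0, 1 and 2 h and 2130.4 at 24 h.

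The largest falls were those of 2 h. Klf4, a Krüppel-like factor of the monocyte lineage, had 268.6 and 419.5 at 0.5 h, 247.5 and 213.2 at 1 h, and 51.6 and 28.7 at 2 h, against 220.7 to 387.1 in unstimulated cells (median 300.1). It thus lay in or near the unstimulated range up to 1 h and far below it at 2 h, where the difference was -2.93 ± 0.17 (adjusted p = 2.2e-20). Ppargc1b, a coactivator of mitochondrial genes, had 570.9 and 583.7, 444.1 and 505.6, and then 72.5 and 94.9 at 2 h, against 263 to 604.7, a difference of -2.48 ± 0.19. Ptger2 had 20 and 20.1 at 2 h. Of 30 lineage transcription factors, 1, Irf4, was called higher at 2 h and 6 lower. The 6 were Sox4 (-2.48 ± 0.18), Hhex (-2.33 ± 0.13), Nfe2 (-2.30 ± 0.19), Foxo3 (-2.21 ± 0.13), Nfil3 (-1.96 ± 0.15) and Fli1, and all 6 stayed called against the unstimulated arrays of 0 to 2 h. Irf4, a factor of dendritic cell differentiation, had 1146.8 and 905.9 at 2 h, against 132.8 to 380.1, a difference of 2.07 ± 0.20.

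**Figure D2:**
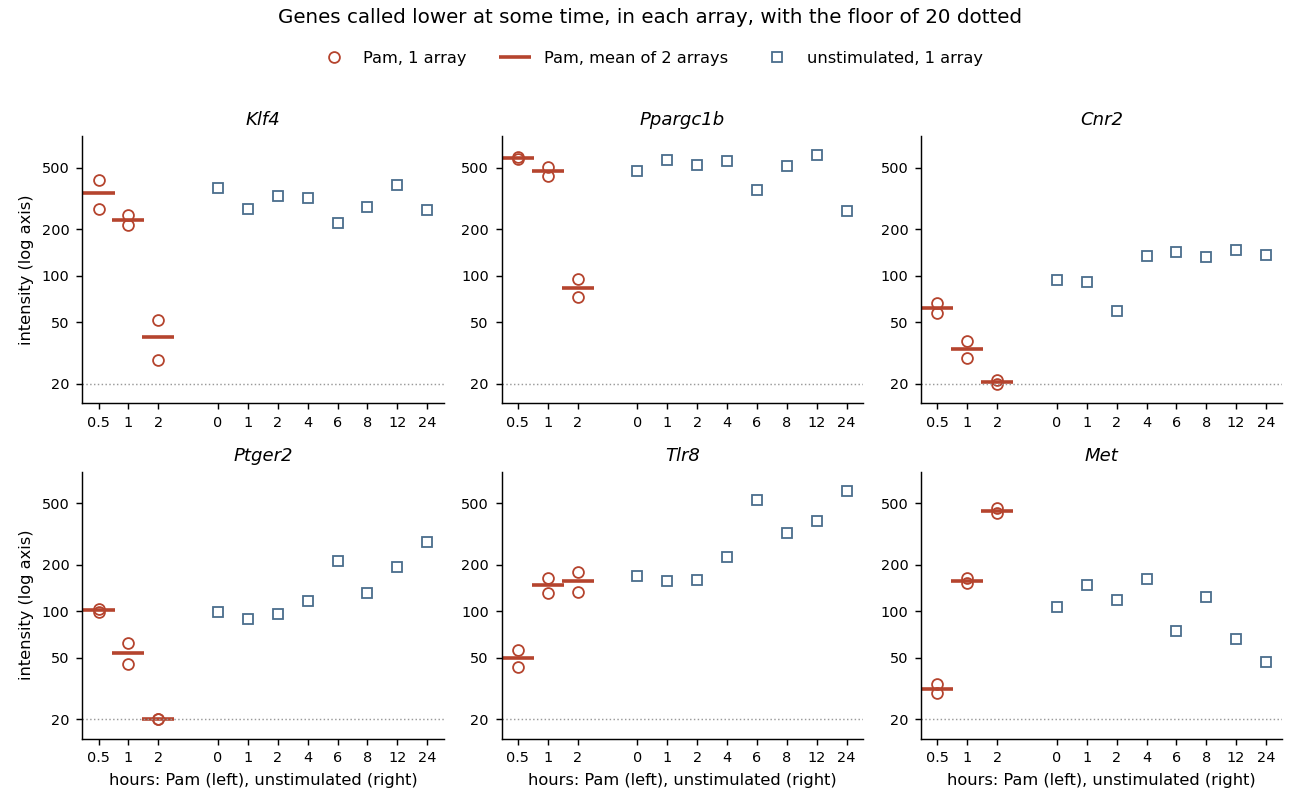
Intensity on a log axis (vertical) of 6 genes called lower at some time, in each Pam array at 0.5, 1 and 2 h (circles, with bars at the mean of 2 arrays) and in each unstimulated array at 0 to 24 h (squares), with the floor of 20 dotted. Klf4, Ppargc1b, Cnr2 and Ptger2 were lowest at 2 h, Tlr8 and Met were lowest at 0.5 h, and unstimulated Tlr8 and Ptger2 were higher at 6 to 24 h than at 0 to 2 h.

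At 0.5 h the falls were of other genes, led by Tlr8 (-2.47 ± 0.29), an endosomal receptor, Stat2 (-1.84 ± 0.18), the ferritin-binding autophagy receptor Ncoa4 (-1.77 ± 0.16), the growth factor receptor Met (-1.61 ± 0.22), Ogt (-1.60 ± 0.14) and Ccnl2 (-1.58 ± 0.17). Each was also called against the unstimulated arrays of 0 to 2 h. A second probe set of Ncoa4, of similar brightness, differed by -0.61 at 0.5 h. Tlr8 had 43.7 and 55.9 at 0.5 h and 130.5 to 178.8 at 1 and 2 h, against 156.3 to 601.4 in unstimulated cells. Only 37 of the 77 genes called lower at 0.5 h had a gene name. Named examples were also low in the 0.5 h arrays of other ligands that shared the plate column. Tlr8 had 34.2 to 80.5 in the 0.5 h arrays of Lps, Pic and Grd, which also lay in column 1, and 161.9 and 180.9 in those of Cpg, which lay in column 10. Likewise Met had 29.4 and 33.7 after Pam, 20 to 32.8 in the other ligands of column 1, and 113.7 and 93.6 after Cpg. Over the 77 genes the median difference from the same 8 unstimulated arrays was -1.23 for Pam, -1.29 for Lps, -1.54 for Pic, -1.26 for Grd and -0.45 for Cpg. For the 80 genes called higher it was 1.66 for Pam, 1.17 for Lps, 0.80 for Pic, 0.92 for Grd and 1.22 for Cpg. Since all these differences share the 8 unstimulated arrays, and the genes were chosen on the Pam arrays, they are given as values only. Egr1, by comparison, had 1921 and 794.6 at 0.5 h of Pam, 317.4 and 232.4 of Lps, 74.3 and 48.1 of Pic, 65.3 and 80.5 of Grd, and 502.6 and 648.8 of Cpg. An effect of plate column 1 and an effect of the first 0.5 h cannot be told apart within these 4 ligands.

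The change within the window was also tested without any unstimulated array, as 2 h against 0.5 h of Pam. Here 328 genes were called higher at 2 h (3.11%) and 246 lower (2.33%), and 249 and 117 of these were called with either 2 h array left out as well. The largest rises were Il12b (4.95 ± 0.42), Dusp14 (4.02 ± 0.17), Cd70 (3.87 ± 0.11), Met (3.78 ± 0.27), the ephrin receptor Epha4 (3.71 ± 0.17) and Serpinb2 (3.70 ± 0.35). Met had 461.9 and 431.1 at 2 h, against 29.4 and 33.7 at 0.5 h, and its low level at 0.5 h is the one shared by the ligands of plate column 1. The largest falls were Fos (-4.90 ± 0.25), Egr1 (-3.90 ± 0.27), Klf4 (-3.09 ± 0.22), Ppargc1b (-2.78 ± 0.24), Nfil3 (-2.48 ± 0.19) and Map3k14 (-2.29 ± 0.14), the NF-kB inducing kinase. These sizes and ranks are those of the brightest probe set of each gene. Against unstimulated cells, second probe sets of Il12b and Epha4 differed by 0.21 and -0.01 at 0.5 h and by 3.95 and 2.21 at 2 h. Those of Klf4 and Map3k14 differed by -0.07 and -0.31 at 0.5 h and by -2.27 and -1.46 at 2 h. The immediate-early list held 3 rises and 9 falls in the contrast of 2 h with 0.5 h, and the cytokine list 13 and 0.

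**Figure D3:**
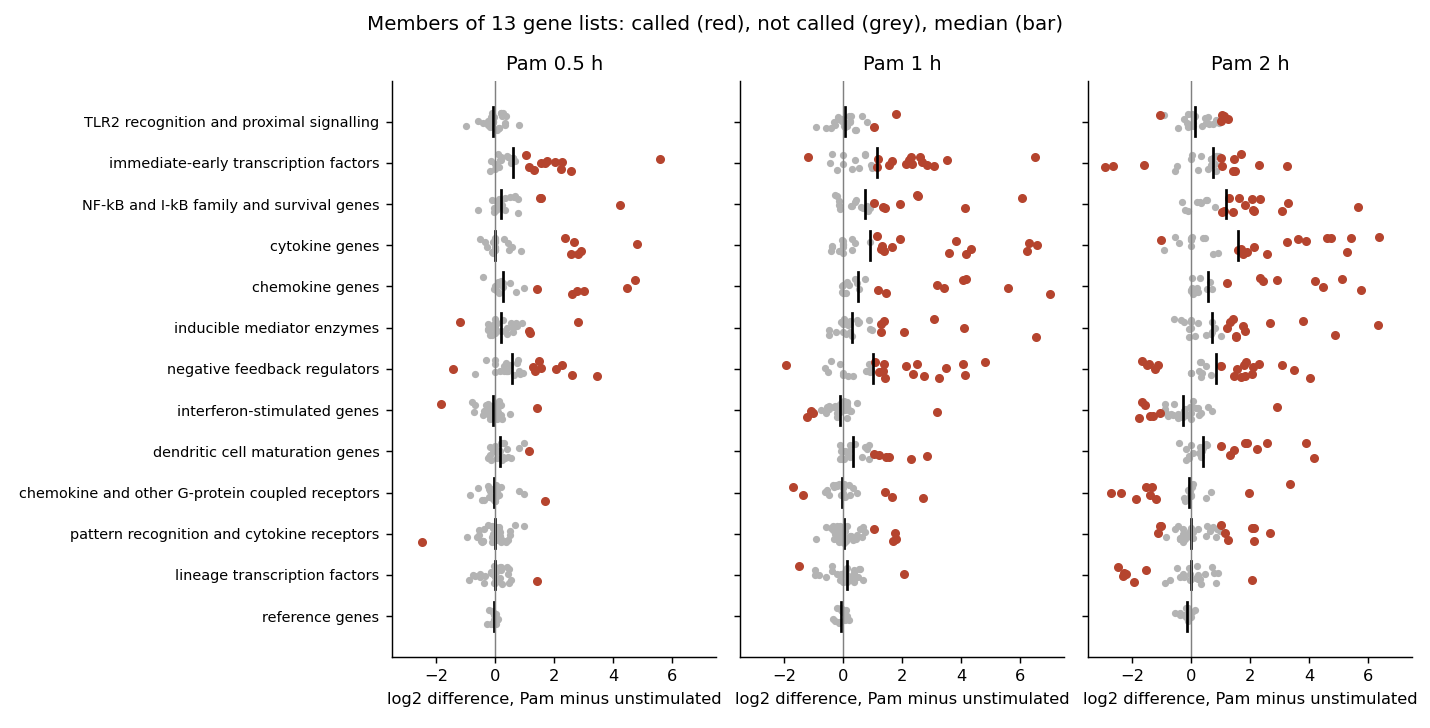
Log2 difference of Pam minus unstimulated (horizontal) for each measured member of 13 gene lists (vertical) at 0.5, 1 and 2 h, with called members in red, others in grey and the list's median as a bar. The cytokine median was 0.00 at 0.5 h and 1.57 at 2 h, that of the interferon-stimulated genes stayed between -0.29 and -0.07, and none of the 13 reference genes was called.

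The 2 arrays of 2 h set the firmness of the results at that time. Of the 182 genes at least 2-fold apart, 153 were higher in the first array and 29 in the second. In the 153 the second array lay at a median of -1.28 from the unstimulated mean and the first at -0.04. Pom121, a nuclear pore protein, is one of these, with 470.8 and 125.5 at 2 h, against 393.6 to 510.6 in unstimulated cells and 397.1 to 493.2 in the other 4 Pam arrays. Cks1b, a cell cycle regulator, had 498.1 and 147, against 387.7 to 659.6. In the 29 the second array lay at 1.03 and the first at -0.17. Among these, C1qa, a complement component, had 370.9 and 819.6, against 514.4 to 1795.2.

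Left out in turn, these arrays had unequal effects. Without the first, 394 genes were called higher and 667 lower at 2 h, and without the second 347 and 310. Called in all 3 cases were 274 higher and 216 lower, among them the rises of Tnf, Il6, Cxcl1, Ptgs2, Nfkbiz and Cd40 and the falls of Klf4, Fos, Ppargc1b, Cnr2, Ptger2, Sox4, Hhex and Nfe2. The 2 arrays of 0.5 h also differed mostly in 1 direction. Of 17 genes at least 2-fold apart there, 16 were higher in the first array. Of the 16, 15 were called higher over the window, among them Tnfsf9, Il6, Dusp2, Nfkbiz and Ptgs2, against 1.65% of all genes. The window call uses the same 0.5 h arrays, so it is not independent of this choice of genes.

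**Figure D4:**
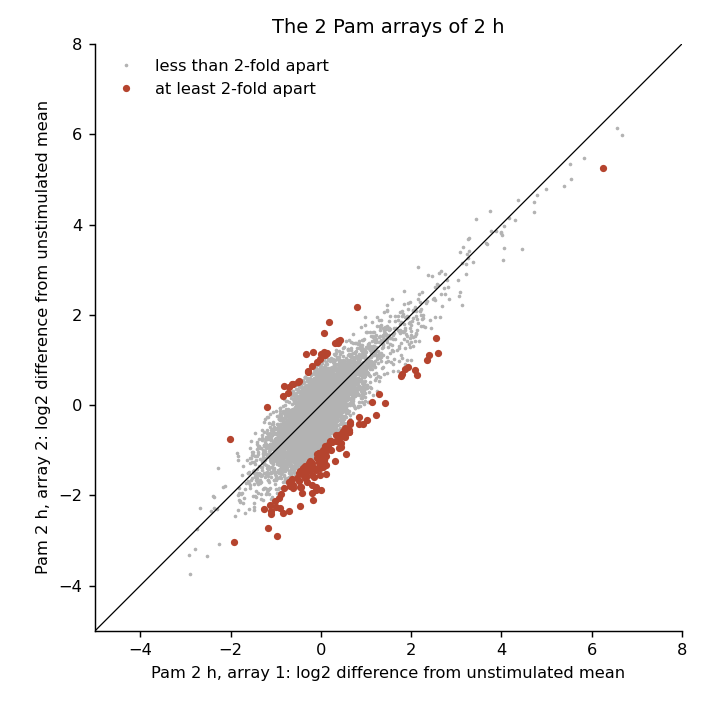
Log2 difference from the unstimulated mean in the first (horizontal) and the second (vertical) Pam array of 2 h, 1 point per gene, with the line of equality. The 182 red points are at least 2-fold apart, and 153 of them lie below the line, where the second array is lower.

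The early response to Pam was also compared at matched times with those to Lps and Cpg, in 2 contrasts that use no unstimulated array. Averaged over 0.5 to 2 h, 0 genes were called higher and 6 lower after Pam than after Lps (0% and 0.0569%), although 2185 had an unadjusted p under 0.05. The 6 were Ifnb1 (-2.16), Rsbn1l (-1.24), Cxcl10, and the interferon-stimulated genes Oasl1 (-1.23), Ifit1 (-1.11) and Cmpk2. Against Cpg 0 were called higher and 5 lower (0% and 0.0474%), with 2564 at an unadjusted p under 0.05. The named ones were Ifnb1 (-1.22), the chemokine gene Ccl12 (-1.21), Il12b (-1.09) and the heat shock gene Hspa1b (-1.05), whose probe set may also detect its near-identical copy.

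At 2 h alone, a comparison added after the data were seen, 4 genes were called higher after Pam than after Lps (0.0379%) and 69 lower (0.654%), and 1 (0.00948%) and 42 (0.398%) were called with either Pam array of 2 h left out as well. The genes named here from this set were chosen after their values were seen. Ifnb1 had 20 and 20 at 2 h of Pam, against 854.5 and 845.3 at 2 h of Lps, and was thus at least 42.5-fold lower. At 2 h of Cpg it had 168 and 178.1. Cxcl10 had 345.7 and 286.9 after Pam, against 3664.3 and 3933.6 after Lps, a difference of -3.59 ± 0.29. Oasl1, Ifit1 and Rsad2, an antiviral gene, differed by -3.23 ± 0.21, -3.00 ± 0.23 and -2.67 ± 0.22. Of the 35 interferon-stimulated genes 0 were higher and 9 lower after Pam (median -0.47), while the lower ones were 13 without the first Pam array (2.39% of all genes lower) and 8 without the second (0.446%). Lower genes were also found in other lists. Of 27 cytokine genes 0 were higher and 5 lower (median -0.46), and of 20 chemokine genes 0 and 4 (median -0.19). Of 28 negative feedback regulators 0 were higher and 4 lower, of 27 immediate-early factors 1 and 3, and of 27 inducible enzymes and mediators 0 and 3. Of the 22 genes in the list of NF-kB, I-kB and survival genes 0 were called either way (median -0.02).

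At 1 h, also added after the data were seen, 15 genes were called higher and 2 lower after Pam than after Lps (0.142% and 0.019%), and 20 higher and 31 lower after Pam than after Cpg (0.19% and 0.294%), so calls against Lps were mostly higher at 1 h and mostly lower at 2 h.

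Several genes outside the interferon response were also lower after Pam than after Lps at 2 h. Fos had 42.1 and 23.3, against 204.1 and 160.2 after Lps, and Jun 86.6 and 65.5, against 309.2 and 266.8. Egr1 differed by -1.72 ± 0.27. Spry1, an inhibitor of receptor tyrosine kinase signalling, had 33.2 and 20.5, against 186.5 and 158.1, and Peli1, an E3 ubiquitin ligase of the TLR pathways, 328.2 and 396.1, against 2077.7 and 2267.4. F3, the coagulation initiator tissue factor, had 90.7 and 32.1, against 453 and 417.2. The 1 gene higher after Pam in all 3 fits was Klf10, with 264.9 and 286.4, against 87.7 and 80.6. Its unstimulated range was 106 to 277.6, so the Pam arrays lay near its top and the Lps arrays below it. Against Cpg at 2 h, 0 genes were higher and 8 lower (0% and 0.0759%) in all 3 fits, among them Il23a (-1.92 ± 0.17) and Spry1 (-1.65 ± 0.10). Pam lay in other plate rows than Lps and Cpg, and in columns 1 to 3 where Cpg lay in columns 10 to 12, so an effect of plate position and one of ligand cannot be told apart in these comparisons.

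**Figure D5:**
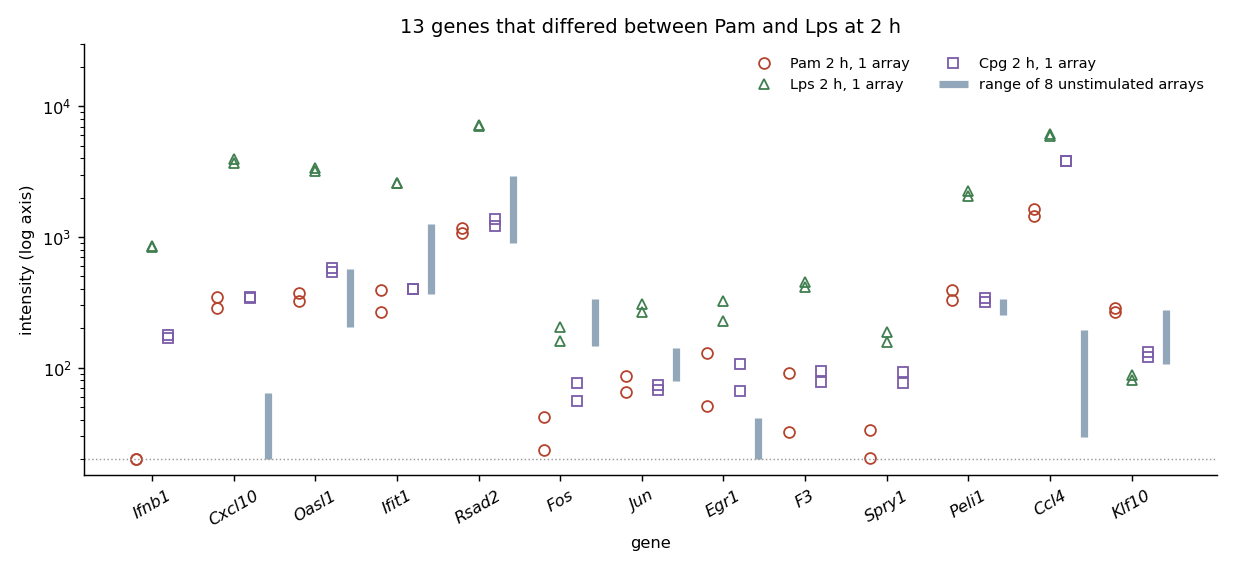
Intensity on a log axis (vertical) of 13 genes that differed between Pam and Lps at 2 h, in the 2 arrays each of Pam, Lps and Cpg at 2 h, with bars for the range of the 8 unstimulated arrays (a range that lies wholly at the floor of 20 shows no bar). Pam lay below Lps for all but Klf10, and the Pam arrays of Oasl1, Rsad2, Jun and Klf10 lay in or near the unstimulated range.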

How the data were processed

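Total RNA of mouse bone marrow dendritic cells was extracted with a silica-column kit, labelled with biotin and hybridised to Affymetrix arrays, per the labels' protocols. Intensities, linear and with a floor of 20, were used as deposited; the authors made them with RMA, per the submitters' processing notes, and its version and settings are not given in the sources used here. Arrays were grouped by title and time. Of 18858 probe sets, 4409 lay at the floor on all 96 arrays and were left out, and each gene was represented by its brightest probe set, which left 10543 items. Probe sets with several gene symbols (257) or none (3557) kept their own identifier. The number of arrays limits the precision.

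Intensities were converted to log2(value + 1) and fitted with limma 3.58.1 in R 4.3.3, in 1 model of 45 ligand and time means and 1 unstimulated mean, with p-values adjusted by the Benjamini-Hochberg method over all items. The code was tested on simulated data. Folds against genes at the floor on all unstimulated arrays are lower bounds. Named genes were the largest called rises and falls per comparison, the leading members of 13 gene lists, the most different genes of the 2 h pair and a panel. Cd83, Fli1, Il12a, Jun, Klf10, Myd88, Peli1, Ptger4, Relb, Rsad2 and Spry1 fall outside this rule and were chosen after their values were seen. The members and lists were chosen with earlier results of these data known. Alternatives changed the pseudocount, centring, filter, probe set choice, unstimulated arrays, blocks, array weights and arrays included. Promoter sequences are from RefSeq. The later times and the ligands Pic and Grd were used only in the fit and in the values named.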

Additional observations from a re-analysis of the deposited data

Results flagged for a closer look

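In unstimulated cells, 4 of 92 named genes tested had 1 array far from the other 7, where chance alone gives about 1 in 20 groups. In the 6 h array, Foxred1 had an intensity of 205.3, the interferon-stimulated gene Ifit3 1396.6 and the interferon-inducible GTPase Iigp1 300.2, each the highest of the 8. Il6 had 62.4 in the 2 h array.

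For 3 named genes the response at 2 h and at 0.5 h was called in opposite directions, and the difference between the times was itself tested with limma. Fos was lower at 2 h than at 0.5 h by a log2 difference of -4.90 (adjusted p = 1.2e-22), Met was higher by 3.78 (adjusted p = 1.3e-16), and Arg2, an arginase, was higher by 2.39 (adjusted p = 1.8e-06). Arg2 differed from unstimulated cells by 1.21 at 2 h and by -1.18 at 0.5 h. The call of Arg2 at 0.5 h was lost against the unstimulated arrays of 0 to 2 h. Both its 0.5 h arrays lay near the floor, at 23.8 and 21.9, and its unstimulated level itself ranged from 27.3 at 1 h to 162.9 at 24 h. The low 0.5 h values of Met came from plate column 1, whose part in them was not tested.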

How the results depend on the processing

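Of the genes called over the window, the number higher stayed within 1.5 times of 174 under all alternatives but the one without the 0.5 h arrays (264). The number lower, 78, was 38 with a pseudocount of 16, 118 with every probe set, 19 against the unstimulated arrays of 0 to 2 h, 32 with a linear trend in them, 40 without those of plate column 12, 167 without the 0.5 h arrays, 47 without the 2 h arrays and 49 with array weights. At 0.5 h the number higher, 80, was 45 with only the arrays compared in the model, 47 against unstimulated 0 to 2 h and 48 with the trend, and the number lower, 77, was 209 with every probe set and 50 against 0 to 2 h. At 1 h the number lower, 102, was 46 with a pseudocount of 16, 43 against 0 to 2 h, 52 with the trend and 55 without column 12. At 2 h the number lower, 388, was 239 with a pseudocount of 16 and 236 with centring. For 2 h against 0.5 h, 328 higher became 541 with every probe set, and 246 lower became 139 with a pseudocount of 16 and 156 with centring. Pam against Lps, 6 in all, gave 17 at 1 h, 73 at 2 h, and 285 or 49 at 2 h without the first or second Pam array. Pam against Cpg, 5 in all, gave 1 with a pseudocount of 16, 8 with every probe set, 51 at 1 h, 23 at 2 h, and 180 or 12 without the first or second Pam array. The causes were not tested.

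Leaving out 1 array at a time gave 165 to 190 higher and 65 to 101 lower over the window, 62 to 102 and 71 to 95 at 0.5 h, 202 to 229 and 85 to 134 at 1 h, 341 to 394 and 310 to 667 at 2 h, 309 to 368 and 171 to 521 for 2 h against 0.5 h, 5 to 8 against Lps and 3 to 8 against Cpg. The widest ranges came from the 2 h arrays. The 1 reversed gene result was Cish at 2 h, 1.55 against all unstimulated arrays and -0.08 against those of 0 to 2 h. Of 411 results for named genes, 27 lost their call with a pseudocount of 16, 47 with only the arrays compared in the model and 20 with array weights, as did 48 of 327 against unstimulated 0 to 2 h. The 411 and the 327 include window results that were not called and so had no call to lose. Array numbers were not used to pair the samples in the main fit. Differences between the first and second arrays correlated with r of 0.04 between 0.5 and 1 h and 0.01 between 0.5 and 2 h. Between 1 and 2 h r was 0.26, and what these arrays share was not tested. The replicate block gave 176 higher and 78 lower over the window and changed none of the 411. Plate row as a block was not run for Pam against Lps or Cpg, because it could not be estimated. Genes at the floor have only an upper bound.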
